A study of Mus musculus with 6 samples.

Results

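The genes described here encode the machinery that adds the inhibitory phosphate to the translation initiation factor eIF2, takes it off again and recharges the factor with GTP. The set held 10 genes: the kinases Eif2ak1, Eif2ak3 and Eif2ak4, the phosphatase subunits Ppp1r15a and Ppp1r15b, the alpha subunit of eIF2 (Eif2s1) and the eIF2B subunits Eif2b1, Eif2b2, Eif2b4 and Eif2b5. Members were taken by name from the table of fragment counts, by a rule that uses no measured value. The names were chosen with earlier results of these data known. Each of the 10 names matched 1 of the 51499 loci in that table, and none shared its locus with another gene.

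Poly(A) RNA was sequenced from SV40-immortalized mouse embryonic fibroblasts (MEFs), with 3 independent cultures of wild-type cells (WT; Yme1l fl/fl) and 3 of Yme1l-/- cells. Yme1l encodes the i-AAA protease, which sits in the inner membrane of mitochondria. Both genotypes carry SV40 large T antigen and come from MEFs with floxed Yme1l alleles that received Cre recombinase and were grown out as single clones. The sources used here do not give how many clones stand behind each genotype, so a difference between the genotypes cannot be told apart from a difference between clones. Cell age and treatments are not given in the labels.

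Phosphorylation of the alpha subunit turns eIF2 from a substrate of the guanine nucleotide exchange factor eIF2B into its inhibitor, which lowers general translation and favours that of a few mRNAs such as Atf4. The kinases sense different stresses: HRI (Eif2ak1) haem shortage and, through DELE1, mitochondrial stress, PERK (Eif2ak3) unfolded protein in the endoplasmic reticulum (ER), and GCN2 (Eif2ak4) uncharged tRNA. The phosphate is removed by protein phosphatase 1 (PP1) guided by GADD34 (Ppp1r15a), which is itself a target of ATF4 and CHOP, or by the constitutive subunit CReP (Ppp1r15b).

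The WT libraries held 33180867 to 34012520 counted fragments each, and Yme1l-/- replicates 1, 2 and 3 held 34624075, 49351107 and 49157459. Yme1l1 itself was at 189 ± 5.16 CPM (counts per 1000000 fragments, scaled by TMM) in WT and 39.1 ± 1.34 in Yme1l-/- (SD, n = 3), that is -2.27 ± 0.05 (SE) as log2 fold change (edgeR quasi-likelihood test, adjusted p = 2.4e-11). Summed fibroblast markers were at 6210 to 6423 CPM in WT and 4368 to 4590 CPM in Yme1l-/-. They did not move as 1 group: of 7 tested, Col1a1 rose (0.43) and 5 fell, among them Vim (-1.33) and Col1a2 (-0.68), and Col3a1 in WT replicate 2, at 301 CPM, stood apart from 86.3 and 91.1 CPM in the other WT libraries. The part of these markers in the results below was not tested. Of those 8 loci, 6 were above 10 CPM in every library, and Thy1 was at 0 to 6 counts. Epithelial markers summed to at most 1.87 CPM, endothelial markers to at most 1.98 CPM and leukocyte markers to at most 0.0613 CPM in any library. Chromosomes shifted as a whole between the genotypes, from a median log2 fold change of -0.44 on chromosome 12 to 0.59 on chromosome 15. For each of the 10 genes the median of its chromosome is given below.

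All 10 members passed the filter on low counts. In Yme1l-/- cells 3 of them rose (Ppp1r15a, Eif2b1 and Eif2b4), 3 fell (Ppp1r15b, Eif2s1 and Eif2b5) and 4 were not called (the kinases and Eif2b2). The largest difference was that of Eif2s1, at 27.1% lower, and the largest rise was that of Ppp1r15a, at 0.26 on the log2 scale. No member reached a 2-fold difference. A call is an adjusted p under 0.05 in the quasi-likelihood test of edgeR, adjusted by the Benjamini-Hochberg method across the 13867 loci that passed.

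Calls were common in this comparison. Of all loci tested, 67.7% were called, 33.6% as higher and 34.1% as lower in Yme1l-/-, and 17.7% were called and differed at least 2-fold. The 6 called of 10 members are a share near this background. For 71.9% of all loci the libraries of the genotypes did not overlap in CPM, and for the members this held for 6 of 10. The median absolute log2 fold change was 0.16 over the members and 0.38 over all loci tested, and the median log2 fold change was -0.04 against 0.00. The plots of CPM by library and of the fold changes show these values. In bulk RNA, fewer cells of a type and less RNA per cell cannot be told apart, and neither protein nor phosphorylation of eIF2 was measured in these libraries.

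**Figure D1:**
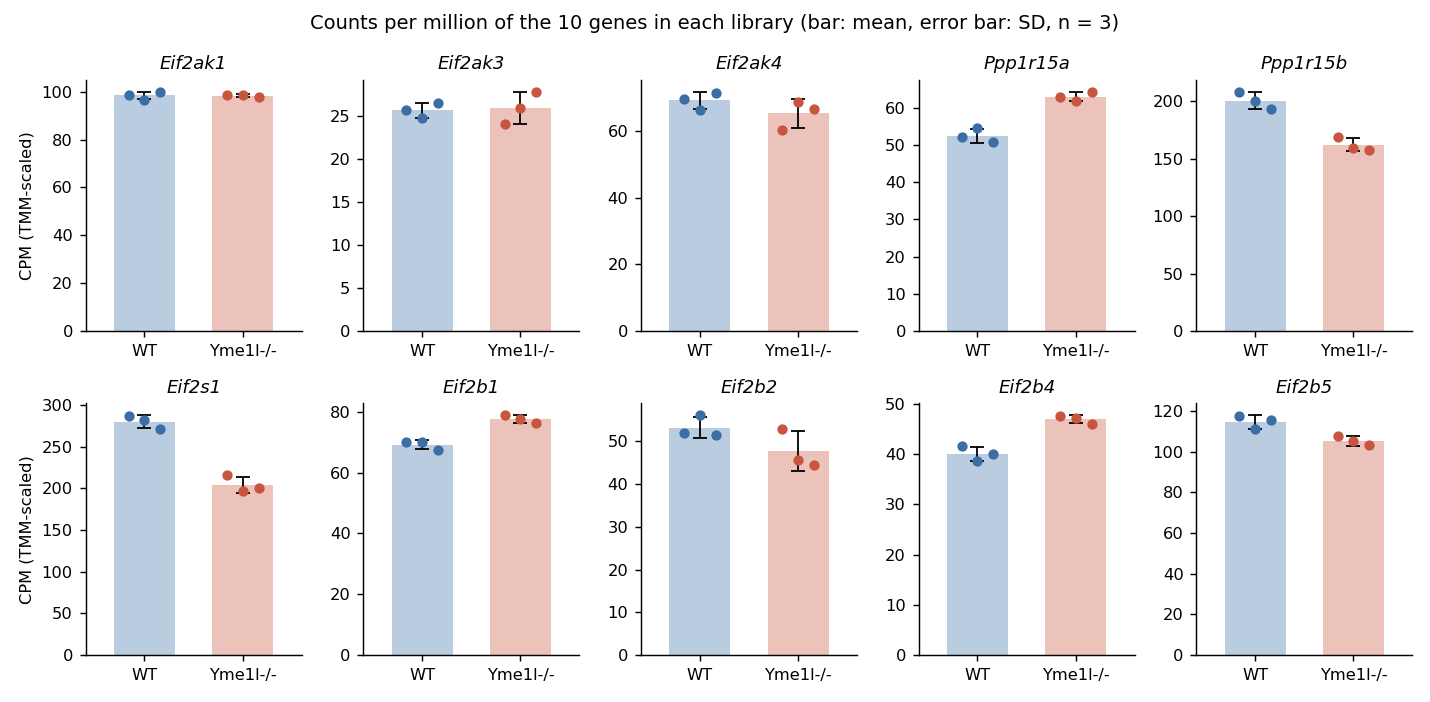
CPM of each gene on the y axis, from 0, in the 3 WT and 3 Yme1l-/- libraries on the x axis; points are libraries, bars are means and error bars are SD. Points of the genotypes are separate for Ppp1r15a, Ppp1r15b, Eif2s1, Eif2b1, Eif2b4 and Eif2b5 and overlap for the 3 kinases and Eif2b2.

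**Figure D2:**
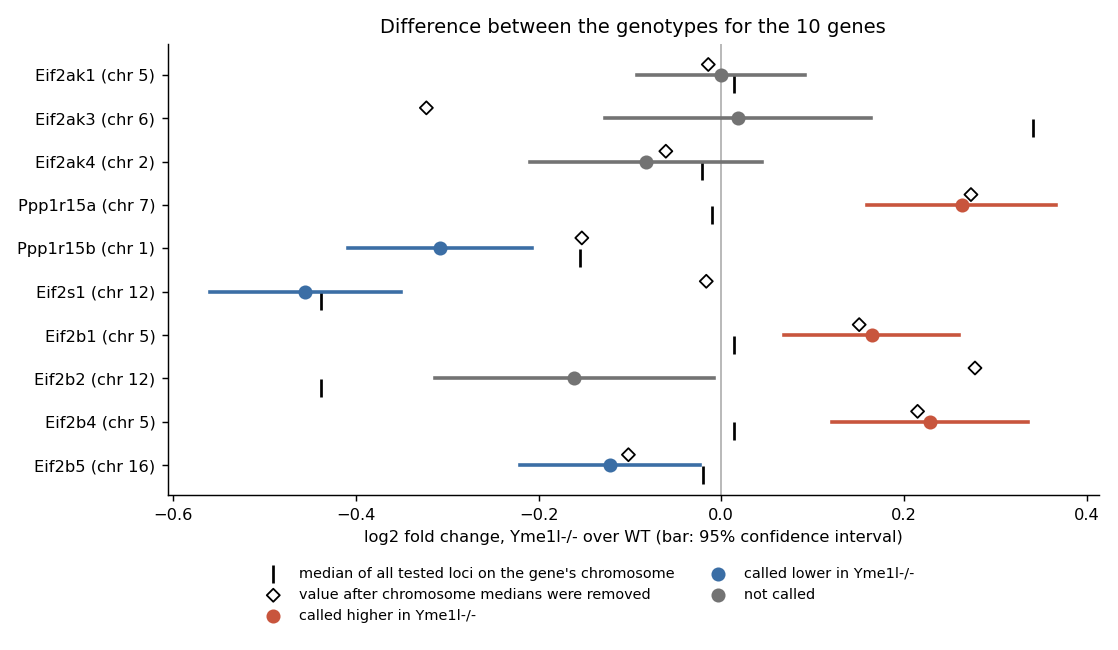
Log2 fold change of Yme1l-/- over WT on the x axis for the 10 genes, with 95% confidence intervals as bars, the median of the gene's chromosome as a tick and the value after chromosome medians were removed as a diamond. Eif2s1 lies at -0.46 beside a chromosome median of -0.44, whereas Ppp1r15a lies at 0.26 beside a median of -0.01.

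Levels between genes were compared by the authors' combined FPKM (fragments counted per kilobase and per depth of the library), which takes transcript length into account and carries no replicate error, so neighbours in this order were not tested. In WT cells Eif2s1 was the highest of the 10 at 111 FPKM. Of the eIF2B subunits, Eif2b2 was at 46.9, Eif2b1 at 46.4, Eif2b5 at 36.8 and Eif2b4 at 26.7 FPKM. Among the phosphatase subunits Ppp1r15b, at 36.7 FPKM, lay between Eif2b5 and Eif2b4, and Ppp1r15a was below these at 23.5 FPKM. The kinases were lowest, with Eif2ak1 at 22.9, Eif2ak4 at 13.9 and Eif2ak3 at 5.90 FPKM. In Yme1l-/- cells Eif2s1 was again highest at 83.0 FPKM and Eif2ak3 lowest at 5.85 FPKM. There Ppp1r15a was at 28.9 FPKM, close to Ppp1r15b at 30.2 FPKM.

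None of the 3 kinase genes was called, and the 95% confidence intervals of their log2 fold changes reached at most from -0.21 to 0.16. Eif2ak1, encoding the kinase that relays mitochondrial stress, was at 98.6, 96.7 and 99.8 CPM in WT and 98.6, 98.7 and 97.8 CPM in Yme1l-/- libraries. The Yme1l-/- values fell inside the WT range. Its log2 fold change was 0.00 ± 0.04 (SE), with a 95% confidence interval from -0.09 to 0.09 and an adjusted p of 0.989 (edgeR). Eif2ak1 (HRI) lies on chromosome 5 from 143817788 to 143904251 on the plus strand (GRCm38), where Ankrd61 and Aimp2 overlap it on the other strand. The median of chromosome 5 was 0.01.

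Eif2ak4, the sensor of uncharged tRNA, was at 69.5, 66.3 and 71.5 CPM in WT and at 60.3, 68.8 and 66.6 CPM in Yme1l-/- libraries. Only Yme1l-/- replicate 1 lay below all WT libraries. The log2 fold change of Eif2ak4 was -0.08 ± 0.06, with an interval from -0.21 to 0.04 (edgeR, adjusted p = 0.228). The gene lies on chromosome 2 from 118388618 to 118475234 on the plus strand, with no overlapping gene in the annotation, and the median of that chromosome was -0.02.

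Eif2ak3, the ER stress kinase and the least abundant member, was at 25.7, 24.7 and 26.5 CPM in WT and at 24.1, 25.9 and 27.8 CPM in Yme1l-/- libraries. Yme1l-/- replicate 1 lay below and Yme1l-/- replicate 3 above all WT libraries. The log2 fold change was 0.02 ± 0.07 with an interval from -0.13 to 0.16 (edgeR, adjusted p = 0.823). Eif2ak3 lies on chromosome 6 from 70844515 to 70905245 on the plus strand, where Gm23346 overlaps it on the same strand and Gm43292 on the other. Loci of that chromosome had a median log2 fold change of 0.34, and 58.8% of its 697 tested loci were called higher. Once chromosome medians were removed, Eif2ak3 was at -0.32 and called lower (edgeR, adjusted p = 0.0013). The other kinases kept their place without a call in that fit, at -0.01 for Eif2ak1 and -0.06 for Eif2ak4.

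Both genes for the eIF2 phosphatase subunits were called, in opposite directions. Ppp1r15a, the inducible subunit, was at 52.1, 54.5 and 50.8 CPM in WT and at 62.9, 61.8 and 64.3 CPM in Yme1l-/- libraries. Each Yme1l-/- library was above each WT library. The log2 fold change was 0.26 ± 0.05 (95% confidence interval 0.16 to 0.37; edgeR, adjusted p = 0.000423). The gene spans 45522916 to 45526268 on the minus strand of chromosome 7 (GRCm38), where Tulp2 overlaps it on the other strand. The median of chromosome 7 was -0.01, and Ppp1r15a was at 0.27 after chromosome medians were removed (edgeR, adjusted p = 0.00041).

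The promoters of the members, from RefSeq (GRCm38.p6; 250 bases before to 50 after each annotated start), were searched on both strands for the C/EBP-ATF response element (TGATGNAAN), the cAMP response element (TGACGTCA) and the ER stress element (CCAAT, a spacer of 9 bases and CCACG). Of the 10 members 9 had a promoter in the table. A match was found for 1 of them, a cAMP response element in the promoter of Ppp1r15a that begins 12 bases before the start. Over all 32851 promoters of this length 1.79% held that element, 3.95% the C/EBP-ATF element and 0.119% the ER stress element. A match describes letters and is not evidence of binding. The Ppp1r15a promoter, at chr7:45526219-45526518 on the minus strand, is shown because this gene had the largest rise among the members and the single match, which is in capitals:
Ppp1r15a: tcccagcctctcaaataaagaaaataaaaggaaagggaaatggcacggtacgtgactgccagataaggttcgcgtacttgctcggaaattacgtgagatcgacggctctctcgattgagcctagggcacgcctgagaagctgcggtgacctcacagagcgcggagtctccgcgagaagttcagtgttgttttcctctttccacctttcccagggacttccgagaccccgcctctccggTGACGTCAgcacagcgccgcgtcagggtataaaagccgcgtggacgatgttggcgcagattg

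Ppp1r15b, the constitutive subunit, was at 208, 200.3 and 193 CPM in WT and at 169, 160 and 158 CPM in Yme1l-/- libraries. Each Yme1l-/- library was below each WT library. Its log2 fold change was -0.31 ± 0.05 (95% confidence interval -0.41 to -0.21), or 19.2% lower (edgeR, adjusted p = 0.0001). Ppp1r15b lies on chromosome 1 from 133131143 to 133139783 on the plus strand, where Gm26616 overlaps it on the other strand. The median of chromosome 1 was -0.15, and the value of Ppp1r15b after chromosome medians were removed was -0.15 and still called lower (edgeR, adjusted p = 0.015).

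Within a library, the ratio of Ppp1r15a to Ppp1r15b counts does not depend on library scaling. It was 0.25, 0.272 and 0.263 in WT and 0.373, 0.387 and 0.407 in Yme1l-/- libraries. The ratio in each Yme1l-/- library was above that in each WT library, with a difference of 0.57 on the log2 scale (SD 0.06 in WT and 0.06 in Yme1l-/-, n = 3). The ratio still carries the shifts of the 2 chromosomes, whose medians were -0.01 for Ppp1r15a and -0.15 for Ppp1r15b. With 3 libraries against 3, the exact permutation test (two-sided) cannot give a p under 0.1, and this ratio had that p (0.167 after Benjamini-Hochberg adjustment over the 10 ratios computed). The sum of both phosphatase subunits relative to the sum of the 3 kinases was 1.34, 1.36 and 1.23 in WT and 1.27, 1.14 and 1.16 in Yme1l-/- libraries, with overlap between the genotypes (exact permutation p = 0.2, adjusted p = 0.25).

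Eif2s1, which encodes the subunit that carries the regulatory phosphate, had the largest difference of the 10 genes. It was at 286, 281 and 271 CPM in WT and at 215, 196 and 200.2 CPM in Yme1l-/- libraries, without overlap. The log2 fold change was -0.46 ± 0.05 (95% confidence interval -0.56 to -0.35; edgeR, adjusted p = 5.9e-06). Eif2s1 lies on chromosome 12 from 78861819 to 78887010 on the plus strand, with no overlapping gene.

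Chromosome 12 had the lowest median of all chromosomes, at -0.44 over 503 tested loci, of which 63.4% were called lower. The fall of Eif2s1 lay near the middle of these loci, with 48.5% of them at a lower log2 fold change. After chromosome medians were removed, Eif2s1 was at -0.02 and not called (edgeR, adjusted p = 0.783). Relative to the sum of the 4 eIF2B subunits, Eif2s1 counts stood at 1.02, 1.02 and 0.988 in WT and 0.75, 0.713 and 0.742 in Yme1l-/- libraries. The libraries of the genotypes did not overlap in this ratio (exact permutation p = 0.1, the smallest possible; adjusted p = 0.167). It contains the fall of Eif2s1 itself and was computed without removing chromosome medians, so it is not separate support for that fall.

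Of the 4 eIF2B subunit genes of the set, 2 rose, 1 fell and 1 was not called. Eif2b1, the alpha subunit gene whose product takes part in sensing phosphorylated eIF2, was at 70.0, 70.2 and 67.6 CPM in WT and at 78.9, 77.6 and 76.4 CPM in Yme1l-/- libraries. Eif2b4, encoding the delta subunit of the regulatory core, was at 41.6, 38.6 and 40.0 CPM in WT and at 47.6, 47.2 and 46.1 CPM in Yme1l-/- libraries. For both genes the genotypes did not overlap. The log2 fold change was 0.16 ± 0.04 for Eif2b1 (edgeR, adjusted p = 0.0057) and 0.23 ± 0.05 for Eif2b4 (edgeR, adjusted p = 0.0014). Both lie on the minus strand of chromosome 5, Eif2b1 from 124570213 to 124579131 and Eif2b4 from 31187558 to 31193430, the latter with Snx17 on the other strand. The median of chromosome 5 was 0.01, and both remained called higher after chromosome medians were removed, at 0.15 and 0.21.

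Eif2b5, which encodes the catalytic epsilon subunit that exchanges the nucleotide, was at 117, 111 and 115 CPM in WT and at 108, 105 and 103 CPM in Yme1l-/- libraries. The genotypes did not overlap, and Eif2b5 fell by 0.12 on the log2 scale (SE 0.04; 95% confidence interval -0.22 to -0.02; edgeR, adjusted p = 0.030). The call was the least firm of the 6. It was lost under upper-quartile scaling (-0.06, adjusted p = 0.235) and after chromosome medians were removed (-0.10, adjusted p = 0.061). It was also lost without WT replicate 1, WT replicate 3, Yme1l-/- replicate 2 or Yme1l-/- replicate 3 (-0.12 to -0.10, adjusted p from 0.0703 to 0.126). The gene lies on chromosome 16, whose median was -0.02, from 20498817 to 20509323 on the plus strand.

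Eif2b2, encoding the beta subunit of the regulatory core, was at 52.0, 56.1 and 51.5 CPM in WT and at 53.0, 45.6 and 44.5 CPM in Yme1l-/- libraries. Yme1l-/- replicate 1 lay inside the WT range and the other Yme1l-/- libraries below it. The log2 fold change was -0.16 ± 0.07 and not called (edgeR, adjusted p = 0.059), and without Yme1l-/- replicate 1 it was -0.24 and called lower (adjusted p = 0.0021). Eif2b2 lies on chromosome 12, like Eif2s1, from 85219481 to 85226628 on the plus strand. After chromosome medians were removed it was at 0.28 and called higher (edgeR, adjusted p = 0.0052). In that fit Eif2b1, Eif2b2 and Eif2b4 were called higher and no subunit gene was called lower.

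As shares of the summed counts of the 4 subunits within each library, Eif2b1 made up 24.98% ± 0.416 in WT and 28.0% ± 0.448 in Yme1l-/- (SD, n = 3). Eif2b4 made up 14.5% ± 0.411 and 16.9% ± 0.318, Eif2b5 41.4% ± 0.97 and 38.0% ± 0.372, and Eif2b2 19.2% ± 0.980 and 17.2% ± 1.13. The shares of all 4 did not overlap between the genotypes, although those of Eif2b2 in WT replicate 1 and Yme1l-/- replicate 1 both rounded to 18.5%. Because the shares are parts of 1 sum, a rise in some subunits lowers the shares of the others, and they are not 4 separate results. Each had an exact permutation p of 0.1, the smallest that 3 against 3 allows, and an adjusted p of 0.167. The shares of the 3 kinases in their sum overlapped for each kinase, with Eif2ak1 at 50.9% ± 0.528 and 51.9% ± 1.69, Eif2ak4 at 35.8% ± 0.421 and 34.4% ± 1.33, and Eif2ak3 at 13.3% ± 0.116 and 13.7% ± 0.687.

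**Figure D3:**
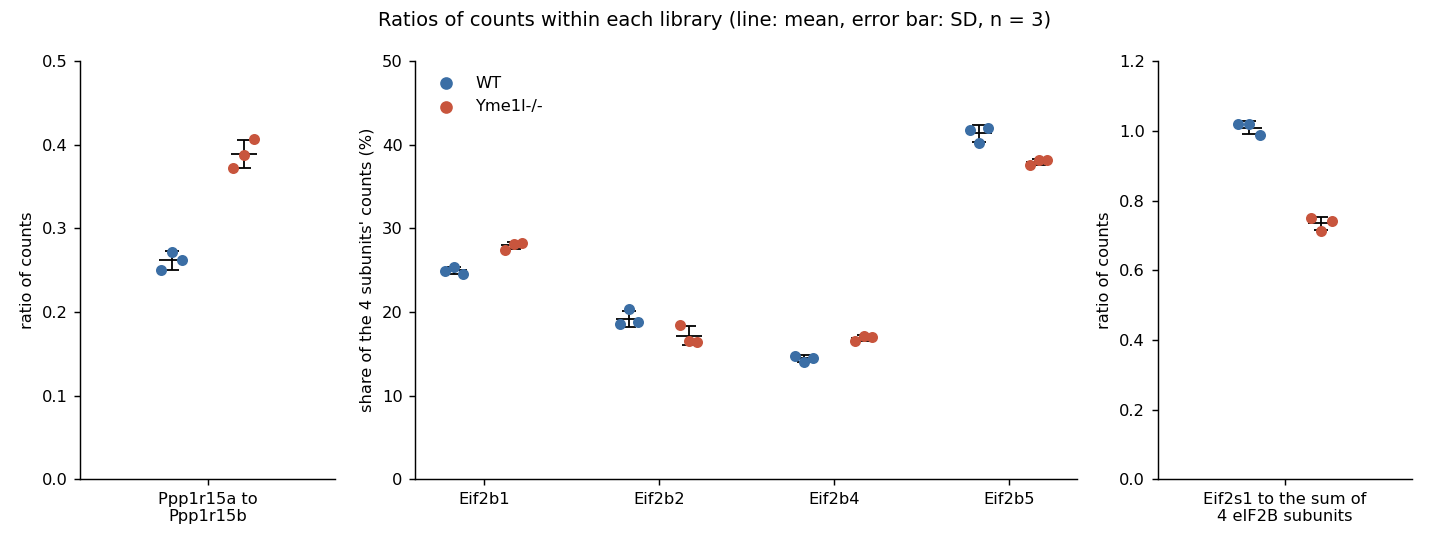
Count ratios within each library on the y axes (ratio, or percent of the summed counts of 4 eIF2B subunits) for WT and Yme1l-/-; points are libraries, lines are means and error bars are SD. The Ppp1r15a to Ppp1r15b ratio is higher and the Eif2s1 to eIF2B ratio lower in each Yme1l-/- library, and the subunit shares differ by a few percentage points.

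Genes that act with these members were followed through lists drawn up with earlier results of these data known. Among 13 partners of eIF2 and eIF2B, 12 passed the filter, 1 rose and 7 fell (median log2 fold change -0.20, against 0.00 over all loci). Counts in this and the following lists stand beside the 33.6% higher and 34.1% lower over all loci. The riser was Eif2b3, the gene for the gamma subunit that completes eIF2B, at 39.9 ± 2.09 CPM in WT and 48.4 ± 1.12 in Yme1l-/- (0.28 ± 0.05; edgeR, adjusted p = 0.00063). After chromosome medians were removed Eif2b3 was at 0.38 and still called higher. The lowest called value was that of Eif5, the GTPase-activating protein of eIF2, at 667 ± 33.9 and 359 ± 4.41 CPM (-0.89 ± 0.05; edgeR, adjusted p = 4.0e-08). Eif5 also lies on chromosome 12 and was at -0.46 after chromosome medians were removed.

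The genes for the other eIF2 subunits were looked at after their values were seen. Eif2s2, the beta subunit, was at 383 ± 6.40 CPM in WT and 392 ± 4.49 in Yme1l-/-, and its log2 fold change was 0.03, with an interval from -0.05 to 0.12 (edgeR, adjusted p = 0.469). Eif2s3x, the X-linked gamma subunit gene, was at 571, 562 and 553 CPM in WT and at 185, 362 and 359 CPM in Yme1l-/- libraries. Each Yme1l-/- library was below each WT library, and Yme1l-/- replicate 1 stood apart from the others of its genotype. The log2 fold change of Eif2s3x was -0.89 ± 0.30 and not called (edgeR, adjusted p = 0.052). By DESeq2 on all 6 libraries it was -0.90 and called lower (adjusted p = 0.0025), and without Yme1l-/- replicate 1 it was -0.64 ± 0.04 and called (adjusted p = 2.0e-07). Eif2s3y, the Y-linked copy, did not pass the filter.

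Among 11 regulators of the kinases and of the phosphatase that were tested, 2 rose and 7 fell (median -0.19); with chromosome medians removed 2 were higher and 5 lower. Hspa5 and Dnajc3 are among the fallers and are counted again in the ER list below. The fourth eIF2 kinase gene, Eif2ak2, which encodes the double-stranded RNA sensor PKR and is induced by interferon, was at 51.9, 55.0 and 57.7 CPM in WT and at 107, 131 and 135 CPM in Yme1l-/- libraries. Its log2 fold change was 1.18 ± 0.08 (edgeR, adjusted p = 8.4e-07), against 0.00, 0.02 and -0.08 for the 3 kinase genes of the set, and it was 1.01 after chromosome medians were removed. Impact, an inhibitor of GCN2 activation, was the other riser and is named because the count was 2; it was at 22.8 ± 1.08 and 50.8 ± 3.33 CPM (1.16 ± 0.06; edgeR, adjusted p = 3.5e-08). The lowest called value was that of Nck1, an adaptor that binds PP1 at eIF2, at -0.40 ± 0.05 (edgeR, adjusted p = 3.0e-05). Nck1 lies on chromosome 9, whose median was -0.36, and was at -0.04 and not called after chromosome medians were removed (edgeR, adjusted p = 0.548).

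Of the 3 genes for PP1 catalytic subunits, which do the dephosphorylation, 1 was called (median -0.11). Ppp1cb was at 344 ± 25.6 CPM in WT and 309 ± 6.62 in Yme1l-/- (-0.16 ± 0.05; edgeR, adjusted p = 0.024). This call was lost under upper-quartile scaling (-0.10, adjusted p = 0.133). It was also lost without WT replicate 1, WT replicate 2, Yme1l-/- replicate 2 or Yme1l-/- replicate 3 (-0.16 to -0.11, adjusted p from 0.0533 to 0.124). Ppp1cc was at 213, 236 and 233 CPM in WT and at 262, 189 and 178 CPM in Yme1l-/- libraries, with Yme1l-/- replicate 1 above and the other Yme1l-/- libraries below all WT libraries (-0.11 ± 0.16; edgeR, adjusted p = 0.556). Without Yme1l-/- replicate 1 Ppp1cc was at -0.31 and called lower (adjusted p = 0.00029), and Ppp1ca was at 1.81 ± 0.208 and 1.71 ± 0.111 CPM in the full comparison. The Ppp1ca locus held 52 to 91 fragments per library. Whether so low a count reflects the level of the gene or how its locus was assembled and counted was not tested.

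Downstream of eIF2, 25 genes of a list of ATF4 and CHOP targets were tested, Atf4 itself among them (0.99 ± 0.05, called higher). Atf4 lies on chromosome 15, whose median was 0.59, and was at 0.40 and still called higher after chromosome medians were removed. Of the 25 genes 19 rose and 1 fell, with a median log2 fold change of 0.73. The highest was Trib3, a pseudokinase gene induced by both factors, at 9.15 ± 0.174 CPM in WT and 52.1 ± 3.88 in Yme1l-/- (2.51 ± 0.07; edgeR, adjusted p = 1.5e-10). The faller was Ero1l, an ER oxidase gene, at 79.3 ± 4.50 and 70.3 ± 3.46 CPM (-0.17 ± 0.06; edgeR, adjusted p = 0.018). Ero1l lies on chromosome 14, whose median was also -0.17, and was not called after chromosome medians were removed (adjusted p = 0.977), under upper-quartile scaling (adjusted p = 0.0904) or without WT replicate 2 (adjusted p = 0.0755) or Yme1l-/- replicate 1 (adjusted p = 0.0536). The rise of Ppp1r15a, itself a target of these factors and not counted in the list, was smaller than the list median, with both values on the same log2 scale.

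The ER chaperones and targets of IRE1 and ATF6, a branch of the ER stress response that runs beside PERK, had 4 genes higher and 12 lower of 19 tested (median -0.28), and 2 higher and 13 lower after chromosome medians were removed. Herpud1, which acts in ER-associated degradation, was the highest at 0.84 ± 0.06 (edgeR, adjusted p = 2.6e-07). Pdia6, a protein disulfide isomerase gene on chromosome 12, was the lowest at -0.97 ± 0.04 (edgeR, adjusted p = 7.5e-09) and was at -0.53 after chromosome medians were removed. The plot of these lists sets the narrow spread of the 10 genes, from -0.46 to 0.26, beside that of the ATF4 and CHOP targets, from -0.17 to 2.51.

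**Figure D4:**
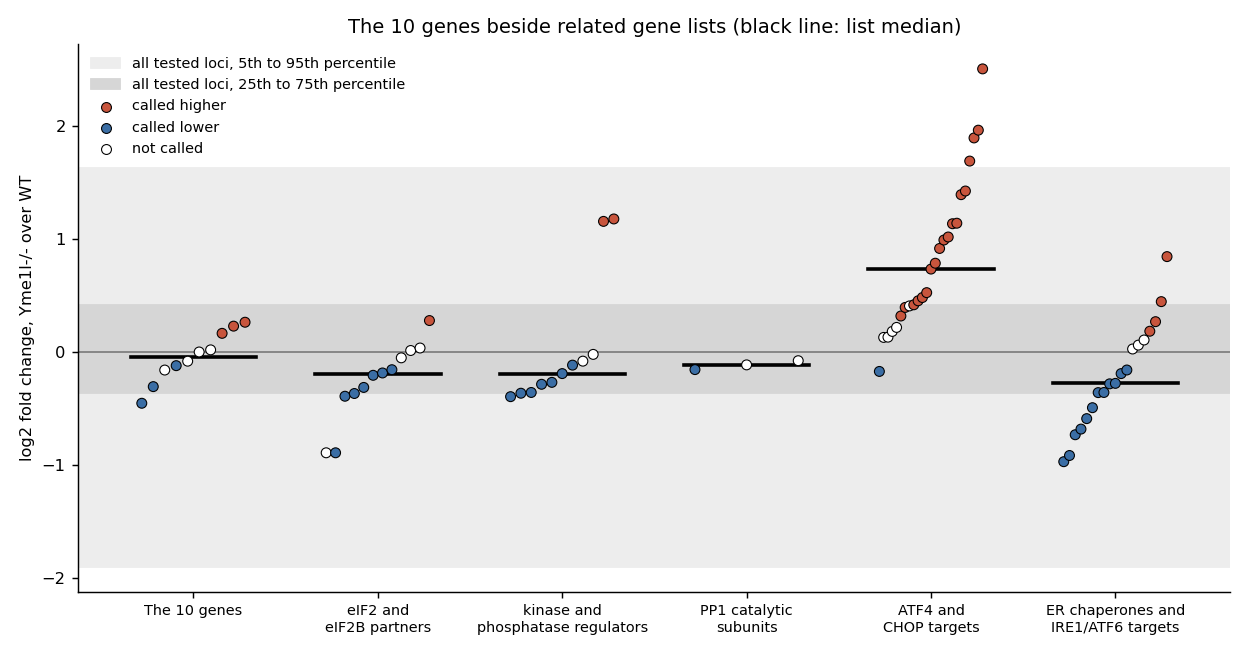
Log2 fold change of Yme1l-/- over WT on the y axis for the 10 genes and 5 related gene lists; each point is a tested locus coloured by its call, black lines are list medians and grey bands are percentiles of all tested loci. The medians are -0.04 for the 10 genes and 0.73 for the ATF4 and CHOP targets.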

How the data were processed

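Stranded poly(A) libraries were mapped by the authors to mm10 (GRCm38, Ensembl annotation) with HISAT2 2.0.4, assembled with StringTie 1.3.3 and compared with Cuffdiff 2.2.1, per the labels' processing notes and the study's methods. The deposited table holds raw fragment counts per assembled locus for 6 libraries. How strand and multiply mapped fragments were treated in counting is not given in the sources used here, so fragments of genes that overlap on opposite strands may not be told apart. A second deposited table holds 1 combined FPKM value per genotype, used for levels between genes. Its fold changes, p-values and q-values of the authors' test were not used.

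The fit was made with edgeR 4.0.16 in R 4.3.3 (filterByExpr, minimum count 10; TMM scaling; glmQLFit with robust estimation; glmQLFTest, two-sided) on all 13867 loci that passed, without covariates. An adjusted p (Benjamini-Hochberg) under 0.05 was a call. CPM values are TMM-scaled. SE is the log2 fold change divided by the root of the F statistic. Count ratios used counts plus 0.5 and exact permutation tests (SciPy 1.17.1). The biological coefficient of variation was 8.47%, and the scripts were tested on simulated data. The study calls the cultures independent and the labels do not give their clones, so p-values measure the spread between cultures. Gene coordinates were taken from the GENCODE annotation of GRCm38 because the coordinate strings of the deposited comparison reach into neighbouring genes for some members (such as Ppp1r15a and Eif2b4), although their counts are listed per gene. To remove chromosome medians, the median log2 fold change of each chromosome entered the fit as an offset.

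Members and lists were chosen with earlier results of these data known. Named were the 10 members, Yme1l1 and, from each list, the called gene with the highest and with the lowest log2 fold change; in lists of 10 loci or fewer any gene could be named. Eif2s2, Eif2s3x, Eif2s3y, Impact, Hspa5, Dnajc3 and Atf4 fall outside this rule and were named after their values were seen. Deviations from the genotype means correlated at 0.14, -0.09 and 0.05 between libraries of the same replicate number, and at -0.18 to 0.16 between libraries of different numbers. With 3 libraries per genotype these values cannot settle whether the libraries are paired. Alternatives were RLE and upper-quartile scaling, DESeq2 1.42.0, 2 other filters, a replicate block, removed chromosome medians and leaving out each of the 6 libraries. Protein sequences were not analysed here.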

Additional observations from a re-analysis of the deposited data

How the results depend on the processing

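Of 130 refitted log2 fold changes of the 10 genes (13 alternatives each), 118 stayed on their side of the threshold, 7 lost a call, 3 gained one in the same direction and 2 became called with the opposite sign. The last were with removed chromosome medians: Eif2ak3 went to -0.32 (called lower) and Eif2b2 to 0.28 (called higher), and there Eif2s1 went to -0.02 and lost its call. The other lost calls were those of Eif2b5. Eif2b2 was called lower without a filter (adjusted p = 0.0144), with the replicate block (-0.16, adjusted p = 0.0294) and without Yme1l-/- replicate 1 (-0.24). Eif2ak1 and Eif2ak3, where uncalled, lay on either side of 0 across alternatives. Ppp1r15a, Ppp1r15b, Eif2b1 and Eif2b4 kept their calls and directions in all 13 alternatives.

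The number of members called higher was 3 or 4 and the number called lower 2 to 4. The replicate block gave 3 higher and 4 lower, with 9794 of all loci called, and changed no other member's call. Of the related lists, the partners of eIF2 and eIF2B went from 1 to 2 higher and the ER list from 4 to 2 higher with removed chromosome medians. Calls over all loci ranged from 8513 to 10051. Leaving out 1 library at a time moved the log2 Ppp1r15a to Ppp1r15b difference between 0.54 and 0.60 and that of Eif2s1 to eIF2B between -0.47 and -0.44. Removed chromosome medians do not tell clones from genotypes, and the cause of the chromosome-wide shifts was not tested.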
